A study of Mus musculus with 9 samples.

Results

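The RNA-seq libraries were examined for 10 transcription factor genes of stem and early progenitor cells: Hlf, Mecom, Prdm16, Hhex, Gfi1 and the HOX genes Hoxa5, Hoxa7, Hoxa9, Hoxa10 and Hoxb4. They were chosen by symbol, and each of the 10 was found among the 35275 gene identifiers of the count file. The cells were megakaryocyte-erythroid progenitors (MEPs, Lin-ckit+CD34-FcγRII/IIIlo) of mouse bone marrow, sorted by binding of HS3A8, a single-chain antibody fragment (scFv) that recognises heparan sulfate (HS). HS3A8-high MEPs bound it strongly and HS3A8-low MEPs weakly. Control MEPs were sorted with MPB49, an scFv without a known epitope, and stand for total MEPs. Each of the 3 groups had 3 libraries, made from 25000 cells each, with no genetic or drug treatment in any group. The labels give no strain, age or sex, and the study lists wild-type C57Bl/6 mice among its strains and states that mice were matched for age and sex.

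Hematopoietic stem cells keep a small set of transcription factors that is lost step by step as cells commit to a lineage. HLF, a PAR bZIP factor, MECOM, the zinc finger protein whose locus also encodes EVI1, and its relative PRDM16 are known for their roles in stem cell maintenance. HOX proteins are homeodomain factors encoded in clusters, and in blood cells the HOXA cluster and HOXB4 are best known for progenitor growth. They bind DNA with TALE cofactors such as MEIS1, and MLL (KMT2A) keeps their genes active. HHEX is a homeodomain repressor of blood and endothelial progenitors, and GFI1 is a zinc finger repressor of stem cells and of the granulocyte and lymphoid lineages, whose close relative GFI1B serves erythroid cells and megakaryocytes.

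The 250 bases before the transcription start are shown for Hlf, the 1 gene called between the fractions without a block, and for Hoxa9 and Hoxa10, neighbours in the HoxA cluster. The sequences are those of RefSeq on GRCm38.p6, 5′ to 3′ on the strand of the gene, at chr11:90390918-90391167 (minus strand) for Hlf, chr6:52227371-52227620 (minus strand) for Hoxa9 and chr6:52240855-52241104 (minus strand) for Hoxa10. Capitals mark matches to a GATA or an ETS motif, and the last base lies next to the start.
Hlf: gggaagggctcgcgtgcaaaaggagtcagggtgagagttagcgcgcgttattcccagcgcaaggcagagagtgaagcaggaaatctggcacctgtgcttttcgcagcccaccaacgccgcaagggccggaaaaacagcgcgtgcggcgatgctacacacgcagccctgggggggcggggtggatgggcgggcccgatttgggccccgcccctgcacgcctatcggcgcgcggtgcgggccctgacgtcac
Hoxa9: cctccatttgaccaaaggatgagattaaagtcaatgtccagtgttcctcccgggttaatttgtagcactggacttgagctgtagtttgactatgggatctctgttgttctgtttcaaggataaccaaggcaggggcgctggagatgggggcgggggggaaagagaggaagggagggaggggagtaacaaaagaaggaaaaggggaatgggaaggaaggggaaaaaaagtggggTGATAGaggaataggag
Hoxa10: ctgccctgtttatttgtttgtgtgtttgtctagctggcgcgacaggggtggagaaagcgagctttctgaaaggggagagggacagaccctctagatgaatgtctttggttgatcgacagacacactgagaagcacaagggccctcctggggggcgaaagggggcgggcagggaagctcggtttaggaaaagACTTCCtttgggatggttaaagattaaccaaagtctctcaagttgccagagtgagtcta

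In GRCm38, Hlf is at chr11:90336536-90390895, and Hoxa5, Hoxa7, Hoxa9 and Hoxa10 lie in that order on the minus strand of chromosome 6 between 52201754 and 52240854. The window of Hoxa9 lies in an intron of its longest GENCODE transcript, and those of Hlf and Hoxa10 lie before the annotated gene. RefSeq starts were found for all 10 genes, with 13 windows in all. The GATA motif was searched as AGATAA or as AGATAG and also with a leading T, that is TGATAA or TGATAG, on both strands. It was in 4 of the 13 windows, beside 26.5% of all 32851 promoter windows. The 4 belong to 3 of 10 genes, namely Hoxa9 at -17, Hoxa7 at -98 and both starts of Mecom at -31 and -27. The ETS motif GGAAGT was in 1 window, that of Hoxa10 at -59, and in 19.7% of all windows. The MEIS motif TGACAG was in 1 window, of Mecom at -86 (15.9% of all), and the GFI1 motif AAATCA also in 1, of Mecom at -40 (12.4% of all). The HOX-PBX motif TGATTNAT (2.82% of all) and the PAR bZIP motif TTACNTAA (2.06% of all) had no match in the 13 windows. Read on the other strand, the GFI1 motif shares the letters TGATT with the HOX-PBX motif. CpG pairs were many in the windows of Hhex (32), Hoxa5 (28) and Hlf (26) and few in that of Hoxa9 (3), against a median of 6 over all windows. In Hlf this count was at or above that of 91.4% of all windows, and in Hoxa9 at or above that of 37.8%.

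Read counts per library ranged from 11781637 to 15850037, and 13936 to 15659 genes had a count. Levels are given as CPM, counts scaled to the library total and by TMM over the 9 libraries. The floor of a count of 0 was set at 3 counts, or 0.175 to 0.282 CPM, and covers counting error only. In each group both the erythroid and the megakaryocyte markers were detected, with summed levels of 12700 to 17100 CPM for 16 erythroid and 82.4 to 438 CPM for 14 megakaryocyte genes. Kit, the marker of the gate, was at 382 to 796 CPM. Cd34, absent from the surface of the gated cells, was at 0.827 to 11 CPM in HS3A8-high, 28.1 to 73.7 CPM in HS3A8-low and 15.3 to 42.3 CPM in control libraries. Granulocyte and monocyte transcripts stood apart in the third library of both fractions. Their 18 markers summed to 2060 CPM in HS3A8-high replicate 3 and 5290 CPM in HS3A8-low replicate 3, against 13.8 to 311 CPM in the other 7 libraries. In bulk RNA, fewer cells of a type and less RNA per cell cannot be told apart.

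Per kilobase of exon, Hhex was the most abundant of the 10 genes, with a mean of 14.1 CPM per kb over the 9 libraries and a range of 12.4 to 17.7. Hoxa9 followed at 2.10 CPM per kb (1.38 to 2.75), and its range did not reach that of Hhex. The other 8 genes had means from 0.971 CPM per kb for Hoxa7 and 0.719 for Hlf to 0.183 for Hoxb4 and 0.0781 for Mecom, with ranges that overlapped those of their neighbours. At or under 3 counts were Gfi1 in HS3A8-high replicates 1 and 2, Mecom in HS3A8-high replicate 3 and control replicate 1, and Hoxa5 in replicate 2 of each group. The remaining 7 genes were above 3 counts in every library. For 8 of 10 genes the group means ran from HS3A8-high through control to HS3A8-low, an order that 19.8% of the 11791 genes tested between the fractions also had. The 8 include Hoxb4, which was not among the genes tested. As the control stands for total MEPs, which the fractions divide, a control mean between theirs is expected where they differ. For Prdm16 (3.42 and 3.43 CPM), Mecom (0.481 and 0.496 CPM) and Hoxb4 (0.404 and 0.425 CPM) the means of HS3A8-high and control differed by less than their SD. So did those of Gfi1 (0.989 and 1.46 CPM, SD 1.55 and 0.777). For Hhex (63.5 and 70.0 CPM) the difference was under the SD of the control (9.31 CPM). The exceptions were Hoxa7, with its highest mean in the control, and Hoxa5, with its lowest there.

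**Figure D1:**
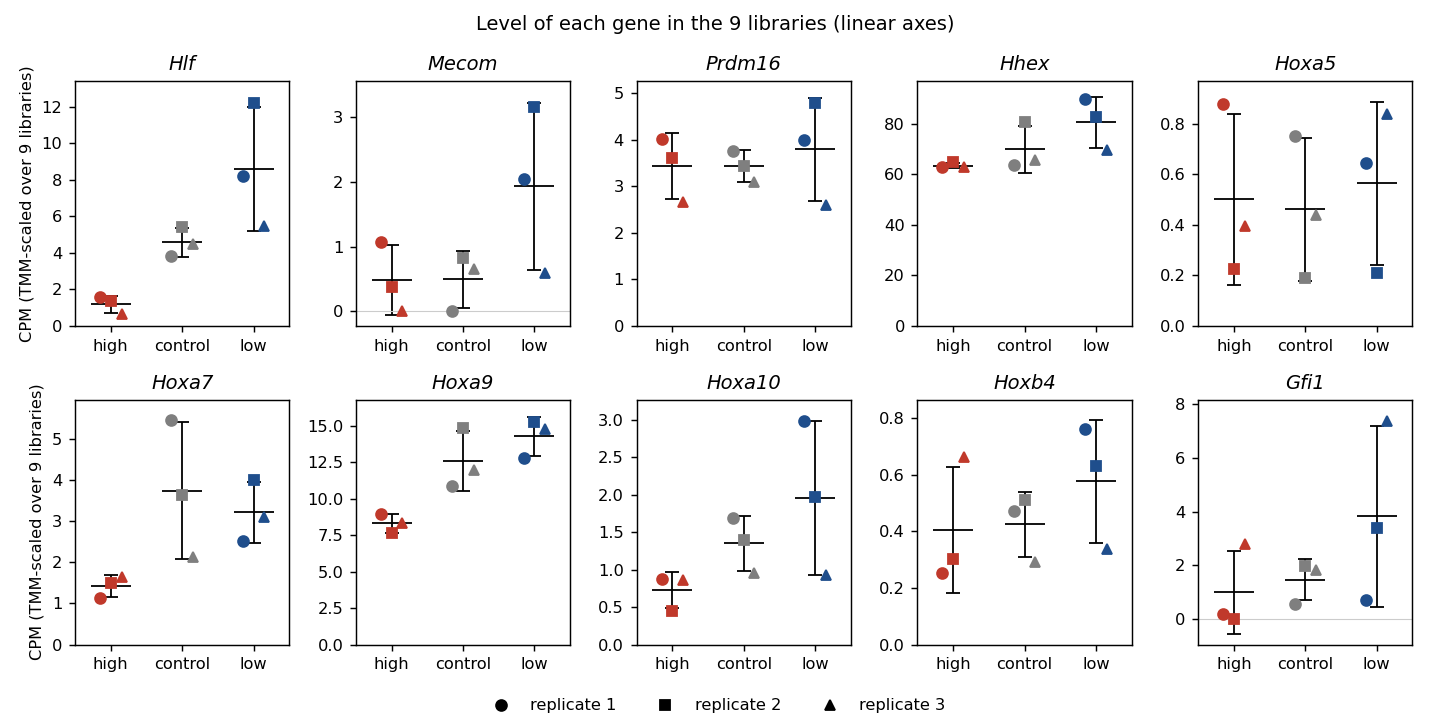
Level of each gene in CPM (vertical axes, linear, a scale for each gene) in HS3A8-high, MPB49 control and HS3A8-low libraries. Points are libraries, shaped by replicate number, and bars are the mean ± SD of 3 libraries. Hlf is at 0.661 to 1.57 CPM in HS3A8-high and 5.46 to 12.2 CPM in HS3A8-low, without overlap.

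Expression in the fractions was compared with edgeR's quasi-likelihood test, with p-values adjusted after Benjamini and Hochberg over all 11791 genes tested. Of the 10 genes, 9 passed the filter on low counts and Hoxb4 did not. Hlf was the 1 gene called at an adjusted p under 0.05, lower in HS3A8-high, beside 3.82% of all genes called and 3.21% called lower in HS3A8-high. The groups did not overlap in CPM, with HS3A8-high lower, in 5 of 9 genes (Hlf, Hhex, Hoxa7, Hoxa9 and Hoxa10), beside 14.5% of all genes. An unadjusted p under 0.05 was reached by the same 5 genes, beside 19.8% of all genes. All 9 log2 fold changes of HS3A8-high over HS3A8-low were below 0, as were 53.4% of all, and their median was -1.19 against -0.03 for all genes tested. Libraries of both fractions with a shared number departed from their group means in the same way, so the replicate number was also fitted as a block. Hlf and Hoxa9 were then called, 2 of 9 beside 11.6% of all genes.

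Hlf had 1.57, 1.35 and 0.661 CPM in HS3A8-high replicates 1, 2 and 3, which were 25, 18 and 10 counts. In HS3A8-low it had 8.19, 12.2 and 5.46 CPM, or 140, 174 and 65 counts. Control libraries had 3.86, 5.42 and 4.47 CPM. Every HS3A8-low library was above every control library, and these above every HS3A8-high library. Hlf was 7.30-fold lower in HS3A8-high than in HS3A8-low MEPs (log2 fold change -2.87, SE 0.464, adjusted p = 0.0283 by edgeR's quasi-likelihood test). Blocked, the adjusted p was 0.00783. Within the numbered pairs the log2 ratio was -2.38, -3.17 and -3.05. The call was lost without HS3A8-high replicate 1 or 2 or HS3A8-low replicate 1 or 2, with log2 fold changes of -3.12, -2.96, -2.89 and -2.51. Without the third library of both fractions it was -2.80, and Hlf remained called.

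Between the groups, stem cell markers had the same order as Hlf. The 14 stem and multipotent progenitor markers summed to 51.4 to 124 CPM in HS3A8-high, 225 to 241 CPM in control and 337 to 462 CPM in HS3A8-low libraries. Within the fractions the order was another one, since replicate 3 had the highest marker sum (124 CPM in HS3A8-high and 462 CPM in HS3A8-low) and the lowest level of Hlf. Of the markers, Procr, the surface protein EPCR of stem cells, had 0 counts in each HS3A8-high library, 6, 8 and 5 counts in HS3A8-low and 3, 9 and 8 counts in control libraries. The part of these markers in the level of Hlf was not tested.

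Mecom had 1.07, 0.376 and 0.00 CPM in HS3A8-high, 2.05, 3.16 and 0.588 CPM in HS3A8-low and 0.00, 0.829 and 0.660 CPM in control libraries. The fractions overlapped, since HS3A8-low replicate 3 had less Mecom than HS3A8-high replicate 1. HS3A8-high was lower in 3 of 3 numbered pairs, with a log2 fold change of -2.0 (SE 1.08, adjusted p = 0.366 by edgeR). With 1 library left out it ran from -3.38 (HS3A8-high replicate 1 left out) to -1.42 (HS3A8-high replicate 3 left out). Its relative Prdm16 had 4.02, 3.61 and 2.65 CPM in HS3A8-high, 3.98, 4.78 and 2.60 CPM in HS3A8-low and 3.76, 3.44 and 3.08 CPM in control libraries. These values overlapped throughout. The log2 fold change of Prdm16 between the fractions was -0.17 (SE 0.347, adjusted p = 0.830 by edgeR).

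Hhex had 62.8, 64.8 and 62.8 CPM in HS3A8-high and 89.7, 82.5 and 69.7 CPM in HS3A8-low libraries, so that each HS3A8-low library was higher in CPM. In raw counts HS3A8-low replicate 3 (829 counts) was below HS3A8-high replicates 1, 2 and 3 (1000, 862 and 949 counts). The separation of the fractions in Hhex thus rests on the scaling of the libraries. Control libraries had 63.5, 80.6 and 65.8 CPM and overlapped both fractions. With 829 to 1533 counts a library in the fractions, Hhex rested on the most reads of the 10 genes. Its log2 fold change was -0.37 (SE 0.117, adjusted p = 0.138 by edgeR, 0.0666 with the replicate block), a 1.30-fold difference that did not pass the test.

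Hoxa9, the most abundant HOX gene, had 8.97, 7.67 and 8.33 CPM in HS3A8-high, 12.8, 15.3 and 14.8 CPM in HS3A8-low and 10.9, 14.9 and 12.0 CPM in control libraries. Every HS3A8-high library was below every other library. The level of Hoxa9 in HS3A8-high was 1.75-fold below that in HS3A8-low (log2 fold change -0.81, SE 0.188, adjusted p = 0.0681 by edgeR). With the replicate block the adjusted p was 0.0496 and Hoxa9 was called, and DESeq2 called it as well (adjusted p = 0.0112). Over all alternatives its log2 fold change ran from -0.86 to -0.73 and its adjusted p from 0.0112 to 0.227.

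Hoxa7 had 1.13, 1.5 and 1.65 CPM in HS3A8-high, 2.52, 4.01 and 3.11 CPM in HS3A8-low and 5.46, 3.63 and 2.13 CPM in control libraries. HS3A8-high was the lowest group here too, with no overlap (log2 fold change to HS3A8-low -1.19, SE 0.354, adjusted p = 0.124 by edgeR). Hoxaas3, an antisense transcript, overlaps 20.4% of the exon bases of Hoxa7, and whether the counting used the strand is not given in the sources used here. Hoxaas3 was at 4.51 CPM in control replicate 1, where Hoxa7 was highest, and at 0.132 to 1.26 CPM in the other libraries. Its part in the level of Hoxa7 was not tested.

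Hoxa10 had 0.879, 0.451 and 0.860 CPM in HS3A8-high and 2.98, 1.97 and 0.924 CPM in HS3A8-low libraries. Control libraries had 1.69, 1.40 and 0.954 CPM. The fractions did not overlap in CPM, while the control overlapped HS3A8-low. In raw counts HS3A8-low replicate 3 (11 counts) was below HS3A8-high replicates 1 and 3 (14 and 13 counts). The separation of the fractions thus rests on the scaling of the libraries. Its log2 fold change was -1.45 (SE 0.558, adjusted p = 0.212 by edgeR). Hoxa5 had 3 to 14 counts a library, at 0.226 to 0.879 CPM in HS3A8-high, 0.211 to 0.840 CPM in HS3A8-low and 0.191 to 0.752 CPM in control libraries, which overlapped. Its log2 fold change was -0.17 (SE 0.742, adjusted p = 0.927 by edgeR). Hoxb4 had 4 to 13 counts a library in the fractions, at 0.251 to 0.661 CPM in HS3A8-high and 0.336 to 0.760 CPM in HS3A8-low, and 0.293 to 0.510 CPM in control libraries.

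Few other HOX genes were detected. Of the 39 HOX genes in the count file, 22 had 0 counts in all 9 libraries and 30 never exceeded 3 counts in a library. All HOX genes together held 2293 counts, of which the HoxA cluster had 96.7%, HoxB 3.23%, HoxC 0.0872% and HoxD none. Hoxa9 alone held 65.3%, and Hoxa9, Hoxa7 and Hoxa10 together 88.0%. These 3 were the only HOX genes to average 1 CPM or more. None of the 34 other HOX genes passed the filter on low counts in any comparison, so that none was tested. The best covered of them were Hoxa3 with 46, Hoxa6 with 42 and Hoxa4 with 38 counts over the 9 libraries.

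**Figure D2:**
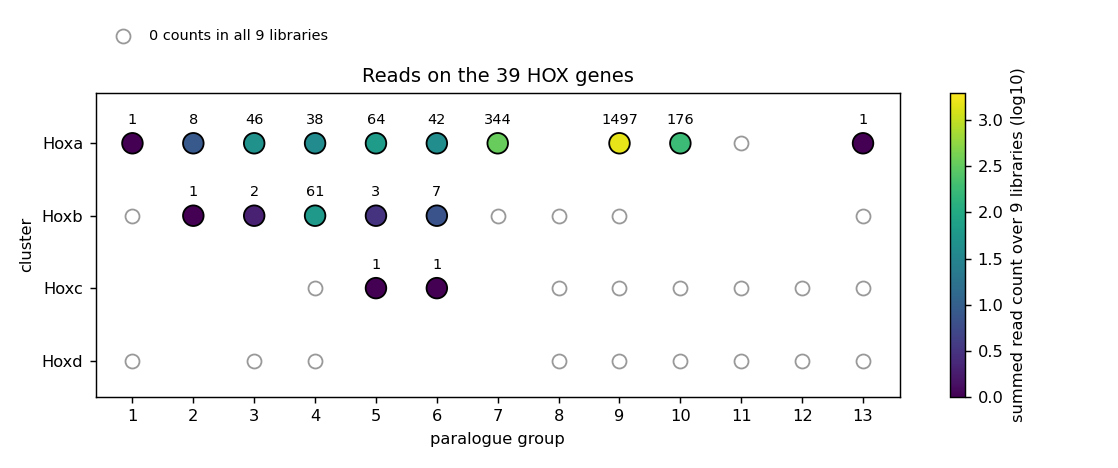
Summed read counts of the 39 HOX genes over the 9 libraries, by paralogue group (horizontal axis) and cluster (vertical axis). Filled circles are coloured by the log10 of the sum, which is printed above each, and open circles had 0 counts. Reads lie mainly on Hoxa9 (1497 counts), Hoxa7 (344 counts) and Hoxa10 (176 counts).

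Gfi1 had 0.188, 0.00 and 2.78 CPM in HS3A8-high replicates 1, 2 and 3, or 3, 0 and 42 counts. In HS3A8-low it had 0.702, 3.37 and 7.39 CPM, or 12, 48 and 88 counts, and in control libraries 0.564, 1.98 and 1.83 CPM. In both fractions the third library was the highest, and the fractions overlapped, although HS3A8-high was lower in 3 of 3 numbered pairs. The log2 fold change was -1.95 (SE 1.38, adjusted p = 0.492 by edgeR), and blocked -2.54 (SE 0.909, adjusted p = 0.126). Leaving out HS3A8-high replicate 3 gave -5.13 and leaving out HS3A8-low replicate 3 gave -1.05. Without both it was -4.21. The highest Gfi1 level of each fraction was in the library with the most granulocyte and monocyte transcripts, and the lowest Gfi1 level of all, in HS3A8-high replicate 2, went with their lowest sum. Across fractions the order differed, since HS3A8-low replicate 2 had more Gfi1 (3.37 CPM) at a sum of 311 CPM than HS3A8-high replicate 3 (2.78 CPM) at 2060 CPM. All 18 markers had a count in replicate 3 of both fractions and in control replicates 1 and 2, and 5 were at 0 in HS3A8-high replicate 2. Their part in the level of Gfi1 was not tested. Gfi1b, its erythroid and megakaryocytic relative, was at 471 to 530 CPM in HS3A8-high and 417 to 498 CPM in HS3A8-low libraries, with a log2 fold change of 0.13 (SE 0.0910, adjusted p = 0.482 by edgeR).

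**Figure D3:**
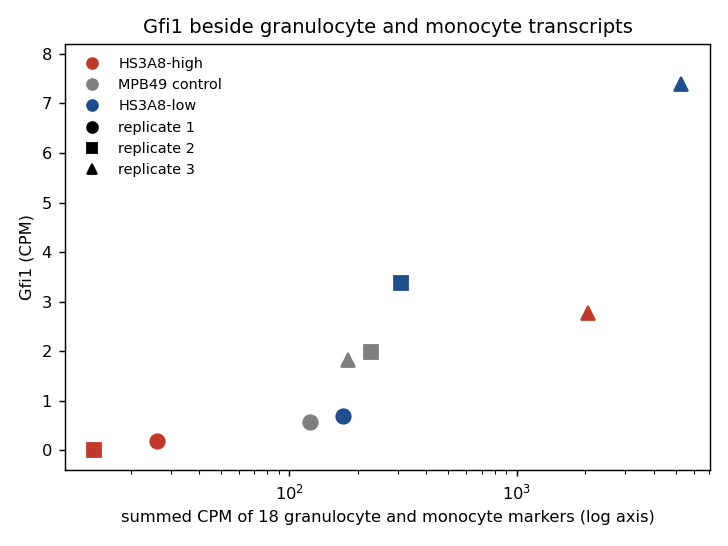
Gfi1 in CPM (vertical axis, linear) against the summed CPM of 18 granulocyte and monocyte markers (horizontal axis, log scale) in the 9 libraries, coloured by group and shaped by replicate number. HS3A8-low replicate 3 is highest on both axes, at 7.39 CPM of Gfi1 and 5290 CPM of markers.

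In the comparison of HS3A8-high with control MEPs, 7 of the 10 genes were tested and 0 were called by edgeR, beside 0.0174% of all 11486 genes. DESeq2 called 1, Hlf, beside 143 of 13408 genes. An unadjusted p under 0.05 was reached by 3 (Hlf, Hoxa7 and Hoxa9), beside 4.89% of all genes, and 4 (these and Hoxa10) were lower in HS3A8-high without overlap, beside 7.49%. Hlf was 3.79-fold below the control level (log2 fold change -1.92, SE 0.449, adjusted p = 0.456 by edgeR, 0.0244 to 0.842 over the alternatives). For Hoxa7 it was -1.36 (SE 0.464) and for Hoxa9 -0.59 (SE 0.231), each with an adjusted p of 0.733 by edgeR. The median of the 7 was -0.59.

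In the comparison of HS3A8-low with control MEPs, 8 genes were tested and 0 were called by edgeR or by DESeq2, beside 0.0% of all 11878 genes by edgeR. An unadjusted p under 0.05 was reached by 1, Hlf, beside 5.67% of all genes, and Hlf was also the 1 gene higher in HS3A8-low without overlap, beside 7.85%. Its log2 fold change was 0.91 (SE 0.372, adjusted p = 0.840 by edgeR), and the lowest HS3A8-low library (5.46 CPM) lay just above the highest control library (5.42 CPM). Mecom had a log2 fold change of 1.90 (SE 1.01) and Gfi1 of 1.36 (SE 0.857), with adjusted p = 0.840 by edgeR for both. Leaving out 1 library gave 1.37 to 2.46 for Mecom. For Gfi1 it gave 0.47 without HS3A8-low replicate 3, the library rich in granulocyte and monocyte transcripts, and up to 1.86 without HS3A8-low replicate 1. The median of the 8 was 0.38. They were the 7 genes tested between HS3A8-high and control, and Mecom, which had the highest log2 fold change of the 8. Mecom summed to 87 counts in HS3A8-low and 22 in each other group, and was under the filter where HS3A8-low was not compared. The medians of the 7 and of the 8 are therefore not of the same genes. The control libraries are shared with the comparison of HS3A8-high.

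**Figure D4:**
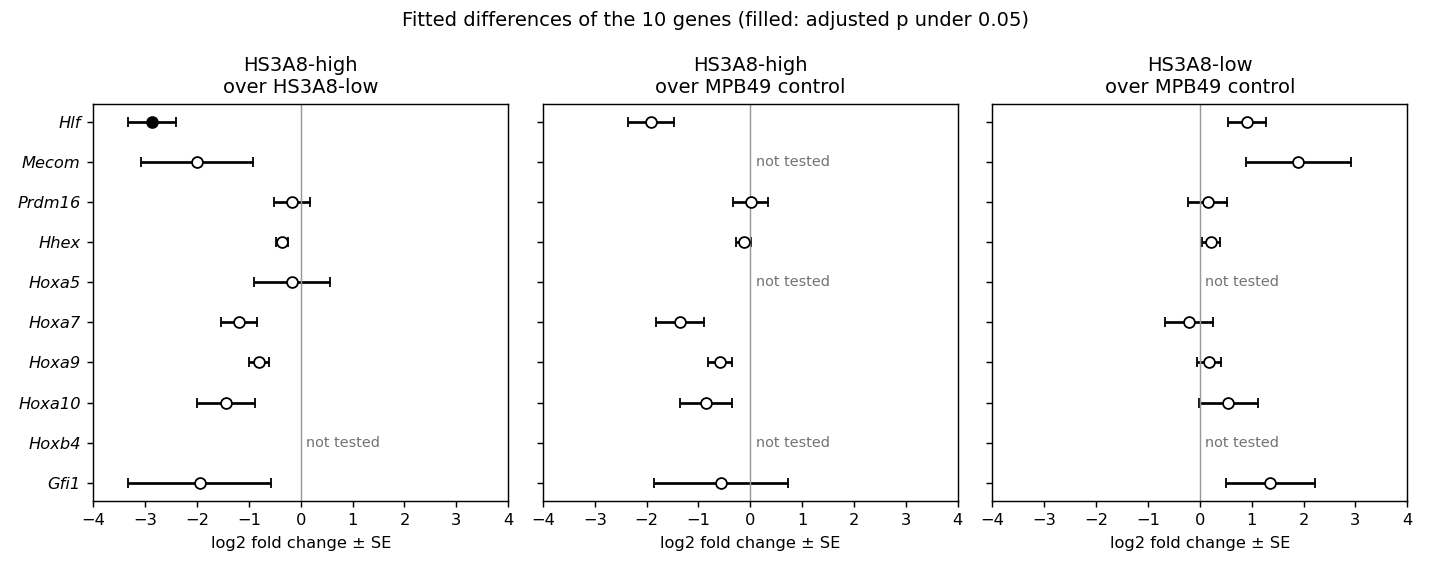
Log2 fold change ± SE (horizontal axes) of each gene in the 3 comparisons, from fits of 3 libraries a group. Filled points have an adjusted p under 0.05, and genes under the count filter are given as not tested. Hlf between the fractions, at -2.87, is the 1 filled point.

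The partners of these factors were then compared between the fractions, where 3.82% of all genes were called in the main test. Of 9 TALE cofactors of HOX proteins 7 were tested, 1 was called lower in HS3A8-high and the median log2 fold change was -0.67. This was Meis1, a known partner of HOXA9, with 3.50 to 4.90 CPM in HS3A8-high, 18.7 to 28.4 CPM in control and 26.5 to 64.9 CPM in HS3A8-low libraries (log2 fold change -3.33, SE 0.371, adjusted p = 0.0128 by edgeR). Meis3 was not called, with 5, 0 and 0 counts in HS3A8-high and 15, 17 and 13 counts in HS3A8-low libraries. Pbx4 had a log2 fold change of -0.50 (SE 0.152, adjusted p = 0.130). Of the 13 trithorax, MLL and polycomb regulators 0 were called by edgeR, with a median of 0.00. With the replicate block 1 of the 13 was called, Kmt2a, which encodes MLL, beside 11.6% of all genes called. Its log2 fold change with the block was -0.97 (SE 0.142, adjusted p = 0.0158 by edgeR). Kmt2a had 15.4 ± 4.45 CPM in HS3A8-high and 29.1 ± 5.22 CPM in HS3A8-low (SD, n = 3). Ezh2, the methyltransferase of polycomb, had 0.20 (SE 0.0891, adjusted p = 0.274).

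Of the 8 corepressors of GFI1, EVI1 and PRDM16, 0 were called by edgeR, also with the block, and their median was 0.09. Ctbp1, which EVI1 and PRDM16 bind, had 0.24 (SE 0.0763, adjusted p = 0.142), and Hdac1, Hdac2 and Hdac3 had 0.08, 0.08 and 0.12. Of 11 relatives of HLF, GFI1 and PRDM16, 10 were tested, 0 were called by edgeR with or without the block, and the median was -0.22. Nfil3, a bZIP repressor with binding sites like those of HLF, had -1.94 (SE 0.723, adjusted p = 0.199).

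Of all genes, 3.82% were called in the main test, with 3.21% called lower in HS3A8-high, and 11.6% were called with the block. Of 17 further stem and progenitor transcription regulators 16 were tested and 3 were called lower in HS3A8-high, with a median of -0.59. These were Mycn (-4.74, SE 0.407, adjusted p = 0.00712), Erg (-3.67, SE 0.611, adjusted p = 0.0307) and Fli1 (-2.19, SE 0.401, adjusted p = 0.0363), the last 2 being ETS factors of stem cells and megakaryocytes. With the block Gata2 was called too (-1.07, SE 0.169, adjusted p = 0.0186). Of the 14 stem and multipotent progenitor markers 11 were tested, 4 were called lower in HS3A8-high (9 with the block) and the median was -3.10. Among them were Tek, the angiopoietin receptor (-3.06), its ligand Angpt1 (-2.42) and Cd27 (-3.10). Of 14 megakaryocyte markers 11 were tested and 4 were called lower (7 with the block), with a median of -2.97, among them Itga2b (-4.01) and Pf4 (-4.29). Of 16 erythroid markers, all tested, 1 was called higher, Car1 (0.36), and 5 with the block, with a median of 0.24. Of the 16 log2 fold changes 9 were above 0 and 7 below, down to -0.48.

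Markers of other cells that the gate could hold were counted too, beside 3.82% of all genes called and 11.6% with the block. Of 18 granulocyte and monocyte markers 14 were tested and 0 were called by edgeR (9 with the block, all lower in HS3A8-high), with a median of -1.47. Of 11 T and NK cell markers 10 were tested and 3 were called lower (4 with the block), with a median of -2.94 and sums of 4.59 to 38.0 CPM in HS3A8-high and 196 to 251 CPM in HS3A8-low. Of 10 mast cell and basophil markers 5 were tested (0 called by edgeR, 1 with the block, median -1.31), and of 9 B cell markers 3 were tested (0 called by edgeR, 1 with the block, median -1.0). Their part in the levels of the HOX genes and of Hlf was not tested.

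**Figure D5:**
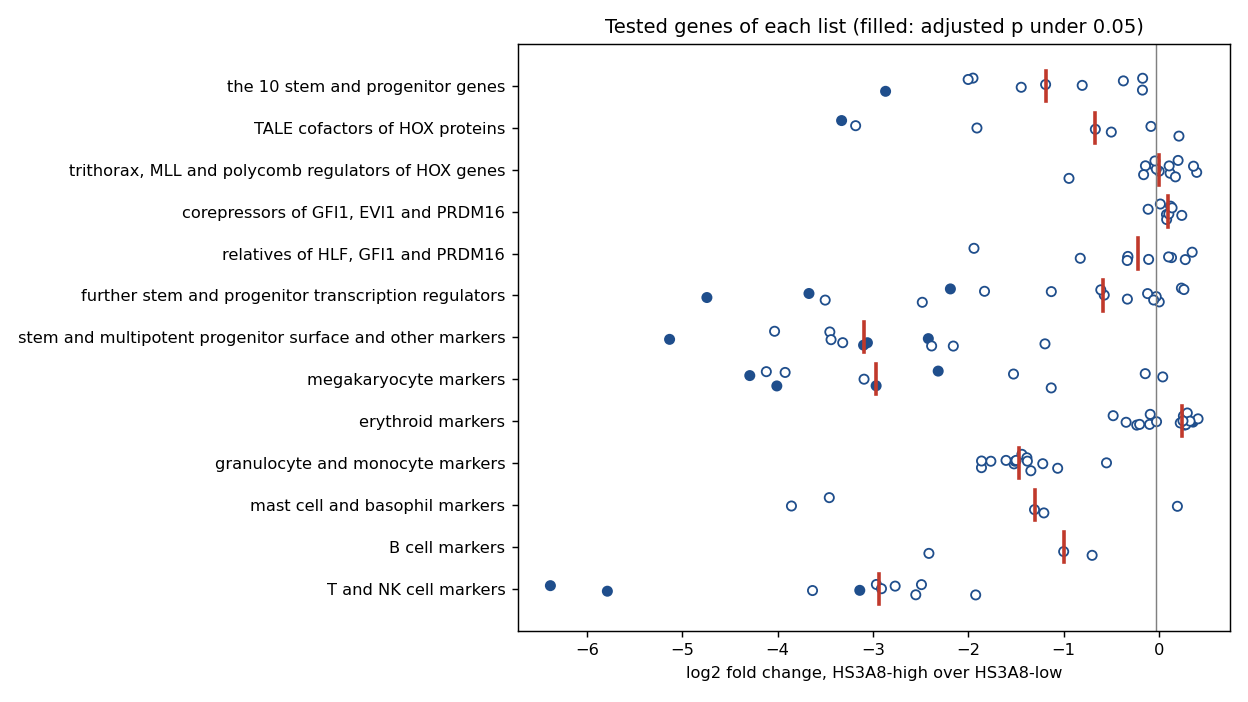
Log2 fold change of HS3A8-high over HS3A8-low (horizontal axis) of each tested gene, by list (vertical axis, points spread for sight). Filled points have an adjusted p under 0.05, red bars are medians of a list and the grey line is the median of all genes tested. The median of the 10 stem and progenitor genes, of which 9 were tested, is -1.19, and that of the stem and multipotent progenitor markers is -3.10.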

How the data were processed

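MEPs were profiled by bulk RNA-seq in 9 libraries of 3 groups. The authors sequenced low-input Illumina libraries and deposited raw read counts per gene, with STAR 2.5, HTSeq 0.6.1 and mm10 named in the submitters' processing notes. The annotation release and use of strand are not given in the sources used here. Of 35275 identifiers, 34490 matched GENCODE M21 (GRCm38), which gave symbols, exon lengths and coordinates, and 16617 had no count. The values of a library are its own, and replicates were not pooled by the authors. They are described as individual mice, and it is not given in the sources used here if 1 mouse gave both fractions.

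Counts were analysed in R 4.3.3 with edgeR 4.0.16 (TMM, filterByExpr, quasi-likelihood test, Benjamini-Hochberg adjusted p under 0.05) in a fit of the 2 groups compared. The study named DESeq2 without its formula, so no block was used in the main test. Departures from the group means were correlated for the 3 same-numbered pairs of an HS3A8-high and an HS3A8-low library (r = 0.550, 0.398 and 0.585 over 11827 genes), so these numbers were taken to pair the fractions. With the control, r was -0.333 to 0.0156 and the numbers do not pair. Replicates differed by more than counting noise. Chi-square divided by its degrees of freedom was 16.6 to 63.3 within the fractions and 9.61 for control 2 and 3. It was 196 for control 1 and 2 and 150 for control 1 and 3. Control replicate 1 also had the lowest TMM factor (0.8645). Alternatives were DESeq2 1.42.0, its size factors, no filter, a mean of at least 10 counts, all 9 libraries in 1 fit, the block, each library left out and, added after seeing the data, both fractions without replicate 3.

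The genes and the gene lists were chosen with earlier results of these data known. Named were the 10 genes, HOX genes averaging 1 CPM or more, Gfi1b, Meis1, genes of the gate and, of each further list, from among the 4 genes of smallest p between the fractions. Genes most correlated with a member were taken where its mean was at least 5 CPM, over log2 CPM with a prior count of 2. The values of 2 genes that this rule covers are not reported here, and both remain in the counts of their lists. Hoxaas3, Procr and the 3 further HOXA genes with the most counts were chosen after their values were seen. The edgeR fit was tested on simulated counts.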

Additional observations from a re-analysis of the deposited data

How the results depend on the processing

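Of 294 values recomputed under the alternatives, 276 kept their direction and their side of the threshold. Hlf between the fractions was the 1 result called in the main test, and it was called in 9 of 13 alternatives. For the other results, keeping the side of the threshold meant staying uncalled. Between the fractions, DESeq2 called 2 of the 10 genes (1229 of all genes) and the replicate block 2 (1367), against 1 (451) in the main test. Leaving out 1 library gave 0 to 1 of the 10 genes and 0 to 439 of all genes, with 0 of all genes by edgeR without HS3A8-low replicate 2 (1900 at an unadjusted p under 0.05), and leaving out replicate 3 of both fractions gave 748. For HS3A8-high against control, DESeq2 called 1 of the 10 genes and 143 of all genes, no filter 9, all 9 libraries 32, the block 0 and leaving out 1 library 0 to 5, against 2. For HS3A8-low against control, DESeq2 called 95 of all genes against 0. Signs changed for genes near 0. Hoxa5 between the fractions was 0.35 without replicate 3 of both and -0.54 to 0.20 with 1 library left out, and Prdm16 was -0.38 to 0.05. Against control, Prdm16 in HS3A8-high was 0.00 with all 9 libraries and 0.00 with the block, and -0.10 to 0.17 with 1 library left out. In HS3A8-low it was -0.05 to 0.37, and Hoxa7 was -0.50 to 0.15, above 0 without control replicate 1. The cause was not tested. Hlf between the fractions was -3.12 to -2.51 (adjusted p 0.0321 to 0.139 by edgeR) with 1 library left out. Replicate numbers of the control pair with neither fraction, and the block with it changed no call of the 10 genes. Between the fractions the block changed no call of the 10 genes other than that of Hoxa9. At the depth of these libraries, genes under 20 counts a library, such as Hoxa5 and Hoxb4, have wide errors.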

Other observations

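For Hhex and Hoxa9, which averaged 5 CPM or more, the genes with the most similar pattern over the 9 libraries were sought among 9347 others by Pearson's r of log2 CPM. For Hhex they were Plpp6 (r = 0.956), Sash3 (r = 0.944) and Arhgef2 (r = 0.939). For Hoxa9 they were Fam69b (r = 0.960), Gimap1 (r = 0.947) and Mfge8 (r = 0.943). These are the highest of many correlations over 9 libraries that share groups, and are given as a description.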
